A study of Homo sapiens with 4 samples.

Results

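The intervals described here are 1084 distal binding sites that full-length SOX2 and its isolated DNA-binding domain (SOX2-DBD) had in common and that carried a value of 2 or more in the seventh column of the SOX2 peak list. They were chosen by that value, by their presence in both lists and by a centre more than 1 kb from every transcript start of a protein-coding gene (hg19, GENCODE release 44 mapped to that build), with exact duplicates counted once. They made up 1.87% of the 57907 intervals of the SOX2 list, 7.58% of its 14300 shared intervals and 7.98% of its 13578 shared distal intervals. A further 51 shared intervals had a seventh column of 2 or more but lay within 1 kb of a start, and were left out.

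Binding was mapped by CUT&RUN, in which an antibody brings a nuclease to a chromatin protein so that the DNA around it is cut out and sequenced. The cells were BJ fibroblasts, an established line from human foreskin, which expressed either full-length SOX2 or SOX2-DBD ectopically, and the antibody recognised the V5 tag of the introduced protein in both groups. Each group had 2 samples, all taken after 48 h of expression. The lists analysed belonged to replicate 1 of each group, so there was 1 list per group, no value below has an error between replicates, and no list from cells without the introduced protein or from a control antibody was analysed here.

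SOX2 is a transcription factor of the SOX family that keeps embryonic stem cells pluripotent and is needed in neural progenitors. Its DNA-binding domain is an HMG box, which enters the minor groove and bends the helix at a short A-rich sequence, and the protein is known as a pioneer factor because it can bind that sequence on nucleosomes. Fibroblasts do not normally express SOX2, and the enhancers that are open in them are typically bound by AP-1 factors of the FOS and JUN families and by TEAD factors.

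What the seventh column holds is not given in the sources used here. It was a whole number, present only in the rows that also occurred in the SOX2-DBD list, and it reached 6. Of the members, 907 had a value of 2, 154 had 3, 18 had 4, 4 had 5 and 1 had 6. All 1084 members occurred in the SOX2-DBD list with the same position and the same signal values, so that the deposited signal is 1 set of values per interval and the library in which it was measured is not stated. The other distal intervals set beside them were 3616 shared intervals with a seventh column of 1, 8878 shared intervals with 0, and 41799 intervals of the SOX2 list without a partner in the SOX2-DBD list (SOX2-only). All intervals on shares are 95% Wilson intervals and those on differences are 95% Newcombe intervals. They cover counting error over genomic intervals only, since genomic intervals are not replicates, and they were not adjusted for the number of differences computed.

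The seventh column followed a SOX-type sequence of 8 letters, which had 8 variants: AACAAAAG, AACAAAGG, AACAATAG, AACAATGG, GACAAAAG, GACAAAGG, GACAATAG and GACAATGG. This set was found by setting the column against words of 8 letters, after the values had been seen, and what follows from it describes how the members were selected. The number of its matches on both strands equalled the seventh column in 11697 of the 14300 shared intervals (81.8%). Much of that share came from shared distal intervals with a 0, where the number of matches was also 0 in 94.9%. Among the members it was equal in 405 (37.4%), with a mean of 1.44 matches per member, so the set accounts for only part of the larger values.

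The sequences below are from 7 members near the top of the list and do not show a typical one. Each of these 7 held 3 to 5 matches in its whole interval, while 428 members held 1 and 138 held 0. The 7 were picked by the number of matches of AACAATGG or AACAATAG or by the seventh column. Each stretch is the hg19 plus strand with the 8-letter matches in capitals. A match on the minus strand appears as its reverse complement, such as CCATTGTT for AACAATGG and CTTTTGTT for AACAAAAG.

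WDR25, chr14:100924094-100924327: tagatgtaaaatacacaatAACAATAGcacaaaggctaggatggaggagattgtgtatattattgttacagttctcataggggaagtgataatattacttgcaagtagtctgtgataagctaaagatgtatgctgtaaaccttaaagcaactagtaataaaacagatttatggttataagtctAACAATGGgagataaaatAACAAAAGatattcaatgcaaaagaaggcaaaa

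PAK2, chr3:196520251-196520484: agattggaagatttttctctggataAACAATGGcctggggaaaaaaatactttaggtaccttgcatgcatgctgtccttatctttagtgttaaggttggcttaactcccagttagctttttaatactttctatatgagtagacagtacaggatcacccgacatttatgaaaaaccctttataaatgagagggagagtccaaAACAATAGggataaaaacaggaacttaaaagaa

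ARSJ, chr4:114936491-114936669: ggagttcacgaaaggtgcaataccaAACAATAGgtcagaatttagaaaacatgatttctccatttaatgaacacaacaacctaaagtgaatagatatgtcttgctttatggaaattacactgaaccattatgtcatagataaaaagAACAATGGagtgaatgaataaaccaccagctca

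CREB5, chr7:28905236-28905535: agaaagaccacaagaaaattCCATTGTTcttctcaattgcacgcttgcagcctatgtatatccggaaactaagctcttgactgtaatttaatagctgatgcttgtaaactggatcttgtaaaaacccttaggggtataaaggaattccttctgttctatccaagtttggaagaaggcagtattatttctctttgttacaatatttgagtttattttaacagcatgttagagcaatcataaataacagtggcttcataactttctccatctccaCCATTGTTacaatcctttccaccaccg

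NEDD1, chr12:97204255-97204529: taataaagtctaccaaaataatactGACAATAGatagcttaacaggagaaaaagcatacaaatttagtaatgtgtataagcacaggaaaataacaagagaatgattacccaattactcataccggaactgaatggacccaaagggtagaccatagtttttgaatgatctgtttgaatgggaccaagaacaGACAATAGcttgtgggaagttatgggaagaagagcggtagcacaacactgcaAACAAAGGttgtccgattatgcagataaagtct

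DNAH7, chr2:196764183-196764357: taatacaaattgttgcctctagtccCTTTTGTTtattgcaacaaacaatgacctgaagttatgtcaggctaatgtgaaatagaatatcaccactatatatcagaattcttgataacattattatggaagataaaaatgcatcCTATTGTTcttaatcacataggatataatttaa

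FILIP1L, chr3:99615441-99615601: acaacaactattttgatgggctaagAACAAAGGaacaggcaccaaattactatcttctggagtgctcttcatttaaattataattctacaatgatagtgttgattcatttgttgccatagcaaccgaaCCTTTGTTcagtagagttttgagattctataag

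The WDR25 stretch, in an intron of a gene for a WD-repeat protein, held 3 matches on the plus strand, of which the second and the third began 18 bp apart. Its whole interval of 283 bp had a seventh column of 4 and a total signal of 6715. The PAK2 interval, in an intron of a gene for a kinase that acts downstream of small GTPases, held 3 matches of AACAATGG or AACAATAG, which no other member exceeded, spaced by 176 and 166 bp on the same strand. Only 2 of these fall in the printed stretch. Near ARSJ, which encodes an arylsulfatase, 2 of the 3 matches stood 121 bp apart on the same strand, in an interval of 855 bp outside protein-coding genes.

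Near CREB5, a factor of the CREB family, both matches printed lay on the minus strand and began 253 bp apart. The NEDD1 interval, named after a gene whose product recruits gamma-tubulin, lay in an intron of CFAP54 and was among the broadest members at 1327 bp. It held 5 matches and had a seventh column of 5, and 3 of the matches are printed, with spacings of 165 and 52 bp. The stretch in an intron of DNAH7, which encodes a dynein heavy chain of cilia, shows a pair 117 bp apart, and that in an intron of FILIP1L shows a pair facing each other at 103 bp. Spacing and strand therefore differed from one of these members to the next.

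The member with the highest seventh column, 6, held none of the 8 variants. It lay at chr15:31151197-31151772, outside protein-coding genes and 31.3 kb upstream of FAN1, the gene of a nuclease that acts on DNA crosslinks. Its total signal of 3248 was below the median of the members. The stretch below is printed because its capitals mark a word that differs from AACAATGG in the last letter, AACAATGC, repeated in tandem.

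FAN1, chr15:31151205-31151504: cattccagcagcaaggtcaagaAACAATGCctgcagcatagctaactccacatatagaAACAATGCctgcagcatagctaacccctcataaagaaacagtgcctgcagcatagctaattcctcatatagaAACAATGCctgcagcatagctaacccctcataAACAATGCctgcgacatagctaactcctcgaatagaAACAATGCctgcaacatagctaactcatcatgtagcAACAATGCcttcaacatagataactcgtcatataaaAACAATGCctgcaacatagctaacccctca

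The word occurred 7 times, all on 1 strand, with start-to-start spacings of 32 to 72 bp and a median of 36.0 bp. The letters between the copies repeat almost unchanged, so the copies are those of a tandem array and are not independent matches. No other member was examined for tandem repeats.

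Among the variants, AACAAAAG was the most frequent in the members, with 447 matches in 401 members (37.0%), or 0.742 per kb against 0.115 per kb in stretches of the same width 10 kb downstream. AACAAAGG followed with 283 matches and AACAATGG with 200. The fewest were 81 of GACAATAG. Each variant was between 3.91 times (GACAATGG) and 8.84 times (AACAAAGG) as dense in the members as downstream, a description that the choice of the members fixes.

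How often a variant went with a seventh column above 0 differed between the variants. Of 372 shared intervals whose single match was AACAATGG, 372 had a value of 1 or more. The share was 97.1% of 204 intervals for GACAATGG and 96.6% of 533 for AACAAAGG. It was 88.2% of 921 for AACAAAAG, and lowest for GACAAAAG, with 157 of 387 (40.6%). GACAAAAG thus stood apart from the other 7, whose lowest share was 84.9% (GACAATAG). As a base for these shares, 8878 of all 13578 shared distal intervals had a value of 0. The words were themselves found by setting them against this column.

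No match of the 8-letter sequence was found in 138 members (12.7%), 428 held 1, 427 held 2, 83 held 3, 7 held 4 and 1 held 5. Of the 138, 107 held at least 1 of AACAATGA, AACAATGC or CACAATGG. These were the words, of 226 with at least 20 shared intervals to judge them by, for which a value of 1 or more was found in 50% or more of intervals with a single match and no 8-letter match (74.9%, 67.1% and 53.0%). Among 613 shared intervals without the letters ACAA on either strand, 2 had a value of 1 or more.

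Within the members, the 8-letter sequence had a density of 2.60 matches per kb, beside 1.60 in shared distal intervals with a 1, 0.149 in those with a 0 and 0.771 in SOX2-only intervals. In stretches of the same widths 10 kb downstream the density was 0.394 per kb for the members and 0.414 to 0.418 per kb for the other classes. Intervals with a seventh column of 0 held fewer matches per kb than nearby DNA. The words were chosen by setting them against the column, so this low density describes that choice and is not a separate result. All shared distal intervals together held 0.860 per kb, near the value of the SOX2-only intervals.

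The shorter SOX core, ACAATG or ACAAAG on either strand, is contained in some of these variants (AACAATGG, AACAAAGG and their forms with G) and absent from the others. It was present in the 200 bp at the centre of 734 members (67.7%, 64.9 to 70.4). The share was 59.8% with a seventh column of 1, 41.4% with 0 and 47.0% in SOX2-only intervals. Windows 10 kb downstream of the members had 27.6%, and 26.7% of 57168 windows of 200 bp spaced evenly over the genome had it. Over the whole interval 95.4% of members held the core, and 835 (77.0%) held it more than once.

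Spacing was measured between the starts of neighbouring matches in an interval. In the 518 members with 2 or more matches of the 8-letter sequence, 618 neighbouring pairs had a median spacing of 127 bp (95% order-statistic interval 118 to 139, interquartile range 59.2 to 233). For the core the 1728 pairs had a median of 103 bp (98.0 to 109). In downstream stretches of the same widths the medians were 127 bp over 32 pairs and 125 bp over 381 pairs. The interval width sets how far apart matches can lie, and denser matches lie closer together, so these medians do not by themselves describe a preferred distance.

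Single spacings were rare. The most frequent were 15 bp and 127 bp on the same strand, with 6 pairs each, and 9 bp and 129 bp followed with 5 each. Spacings of 120 to 129 bp were not particular to the members, with 4.69% of their pairs. Downstream of SOX2-only intervals they made up 9.71% of pairs, and downstream of intervals with a 0, 11.0%. Exactly 2 matches within the central 400 bp were found in 298 members, and 70 of these pairs (23.5%, 19.0 to 28.6) lay within 50 bp of each other. Matches placed evenly over such a stretch would give 23.9%. The same count was 18.5% (13.4 to 24.9) for a seventh column of 1 and 19.2% (17.3 to 21.2) for SOX2-only intervals. The share of close pairs in the members was thus not distinguishable from an even placement.

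**Figure D1:**
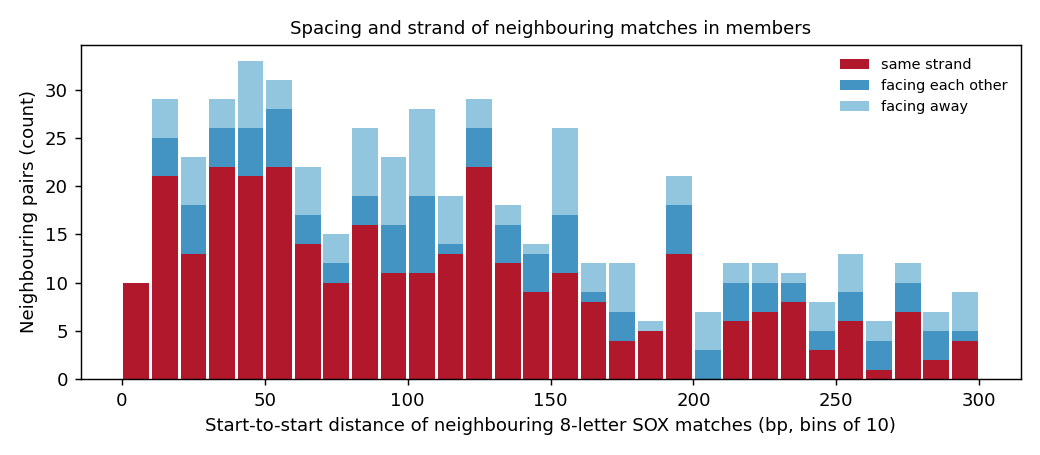
Start-to-start spacing of neighbouring 8-letter SOX matches within the members, in bins of 10 bp up to 300 bp, as counts of pairs, with colours for strand arrangement. Pairs on the same strand made up 365 of 618 over all spacings, and the bars are uneven, from 6 to 33 pairs per bin, such as 21 pairs at 190 to 199 bp between bins of 6 and 7.

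On strand, 365 of the 618 pairs (59.1%) had both matches on the same strand, 127 (20.6%) faced each other and 126 (20.4%) faced away. If strands were independent, same-strand pairs would be as frequent as the facing kinds together. Same-strand pairs made up 57.9% for the core. They were more frequent still in SOX2-only intervals, at 69.1% of 4470 pairs, and in downstream stretches, at 22 of 32 pairs for the members and 65.5% of 1669 pairs for SOX2-only intervals. More same-strand pairs than facing pairs were thus also counted in the downstream stretches, which were not screened for called intervals, and simple repeats in the sequence were not separated from other pairs.

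The position of the matches was compared with the region of maximum signal that the list gives for each interval. For 1005 members its centre lay inside the interval, and 308 of their 1450 matches (21.2%, 19.2 to 23.4) were within 50 bp of it. An even placement along the same intervals gives 20.5%. The median distance was 116 bp. At this limit the members did not differ from an even placement beyond counting error. Within 100 bp, a limit added after seeing the data, the share was 43.6% (41.1 to 46.2) against 39.6% under an even placement, and within 150 bp 60.1% (57.6 to 62.6) against 56.0%. Matches were thus somewhat more frequent than an even placement in the wider surroundings of the maximum. An excess at 100 bp was also found for a seventh column of 1, with 49.7% (47.6 to 51.7) against 46.1%. SOX2-only intervals had 37.0% (36.3 to 37.6) against 32.7%. For a seventh column of 0 the share was 49.3% (44.5 to 54.1) against 46.2%, and its interval included the even placement. Closest to the maximum there was no such excess. Within 50 bp, a seventh column of 1 had 22.3% (20.7 to 24.1), fewer than the 24.5% under an even placement. Density in the members was 2.92 per kb at 0 to 25 bp and 3.44 per kb at 75 to 100 bp.

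**Figure D2:**
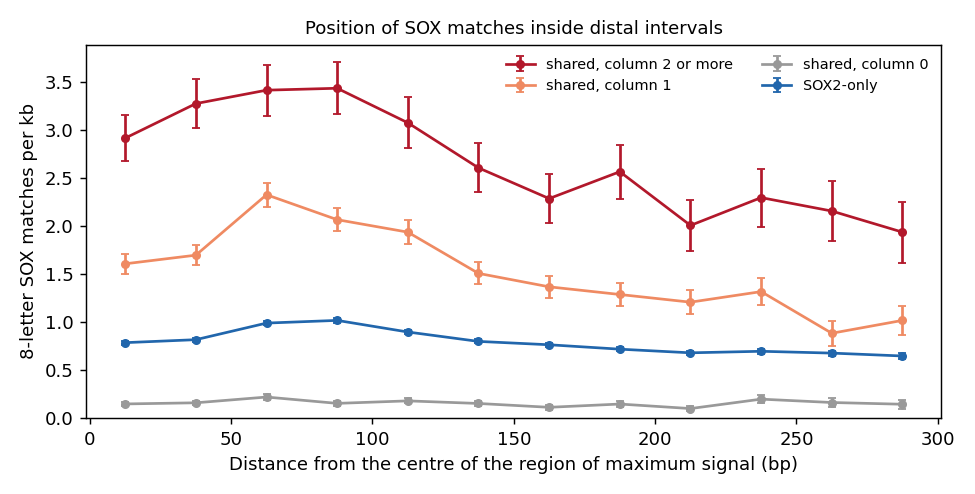
Density of 8-letter SOX matches (matches per kb of interval sequence) against distance from the centre of the region of maximum signal, in bins of 25 bp, for the 4 classes of distal interval. Points are pooled over intervals, bars are the square root of the count, and bins far from the centre hold only wide intervals. The members run from 2.92 per kb at 0 to 25 bp to 3.44 per kb at 75 to 100 bp. Farther out they reach 1.94 per kb at 275 to 300 bp.

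The members were wide among the shared intervals. Their median width was 507 bp (interquartile range 379 to 680, lowest 123, highest 1813), beside 420 bp with a seventh column of 1, 340 bp with 0 and 559 bp for SOX2-only intervals. It was 494 bp for members with a value of 2, 582 bp with 3 and 584 bp over the 23 members with 4 or more. A wider interval has more room for matches, so width is not independent of the rule and is described only. Some shared intervals were also listed narrower than the stretch behind their signal. Their widths are therefore not directly comparable with those of SOX2-only intervals. The share of shared distal intervals that were members was 1.20% below 250 bp, 9.85% from 450 to 550 bp and 34.4% at 1000 bp or more.

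Total signal, deposited as 1 value per interval, had a median of 3540 in the members (interquartile range 2414 to 5239, lowest 1194, highest 15415). The medians were 2910 and 2618 for a seventh column of 1 and 0, and 2280 for SOX2-only intervals. Maximum signal differed less, with medians of 12 in the members, 11 in the other shared classes and 10 in SOX2-only intervals. Total signal was not a sum over the listed width alone. A member of 140 bp in an intron of PPIL4 had a total of 6036 with a maximum of 10. The region of maximum signal lay wholly inside the interval for 89.7% of members and 100% of SOX2-only intervals. With a seventh column of 1 and 0 this held for 84.9% and 70.1%. Between widths of 450 and 550 bp, where 195 members lay, the median total signal was 3148 in members, 3240 with a seventh column of 1, 3250 with 0 and 1960 in SOX2-only intervals. At equal listed width the members were thus close to the other shared intervals, and all the shared classes lay above the SOX2-only class. The listed width of a shared interval can differ from the stretch over which its signal was taken. These values therefore do not show that shared sites were stronger than SOX2-only sites of the same extent. The library behind the shared values is also not stated.

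**Figure D3:**
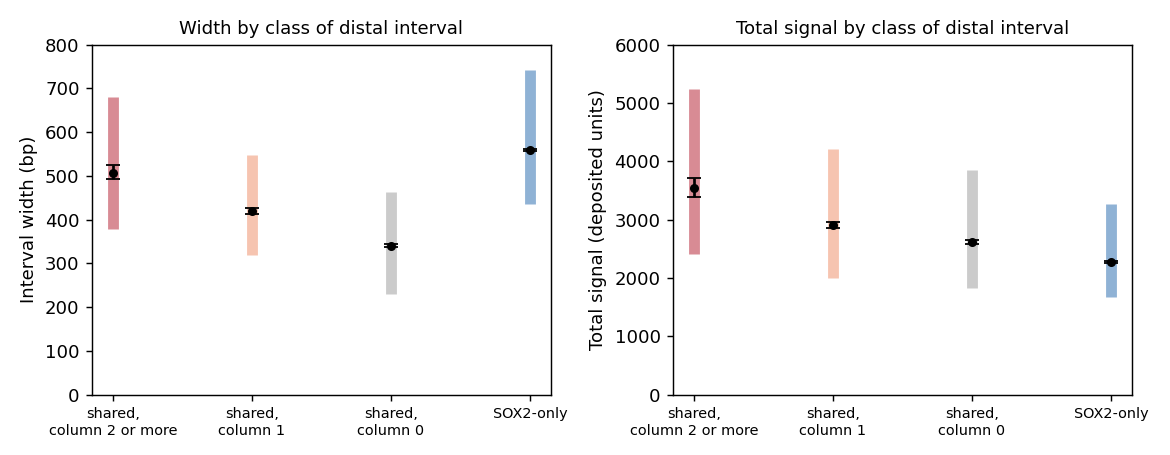
Interval width (left, bp) and total signal (right, deposited units) of the 4 classes of distal interval. Points are medians with 95% order-statistic intervals and thick bars are interquartile ranges. The members have the highest median total signal, 3540, and a median width, 507 bp, between the shared class with a seventh column of 1 and the SOX2-only class.

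**Figure D4:**
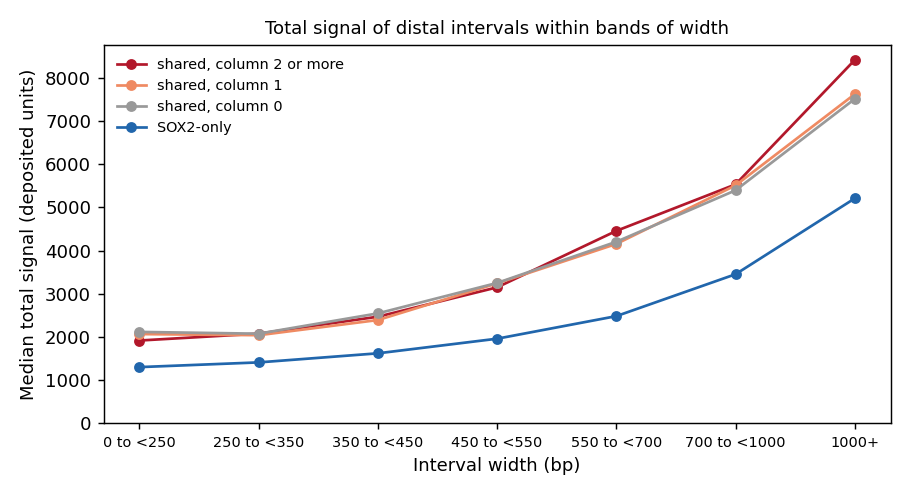
Median total signal (deposited units) within 7 bands of interval width for the same 4 classes. The 3 shared classes lie close together up to a width of 1000 bp, and the SOX2-only class lies below them in every band. Widths are those listed, which for shared intervals need not be the stretch over which the signal was taken.

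The highest total signals belonged to wide members. An interval of 1133 bp at chr1:207516949-207518081, in an intron of CD55, which encodes a complement inhibitor on the cell surface, had 15415, a seventh column of 3 and 4 matches on the same strand spaced by 308, 225 and 140 bp. It was followed by one of 15387 outside genes 38.0 kb downstream of the start of DRAM2, a gene linked to autophagy, and one of 14090 in an intron of DHX32, of the DEAH-box family, which the file repeated in 6 rows. The widest member (1813 bp, total signal 13187) had SPRY3, of the Sprouty family, as its nearest gene. Others lay 17.3 kb upstream of the start of ZBED5 (12868) and 331 kb downstream of that of AGBL1 (12738). The narrowest, of 123 bp, lay in an intron of KIAA1958 with a total signal of 1965.

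ITGA1, the collagen-binding integrin subunit alpha 1, had a member with a seventh column of 5 whose centre fell in an exon, the case of 24 members (2.21%). Of its 1263 bp, 166 were annotated as coding in 1 transcript or another, and the same number as UTR. It had a total signal of 8142 and only 2 matches of the 8-letter sequence. Another of the 4 members with a value of 5 was in an intron of BABAM2, of a BRCA1-containing complex (2 matches). Of the 18 members with a value of 4, those of highest total signal are named, at WDR25 and FILIP1L above and in an intron of SUGCT, a mitochondrial enzyme of glutarate breakdown (2 matches 246 bp apart on the same strand).

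Members lay at a median of 31.1 kb from the nearest protein-coding start (interquartile range 10.1 to 91.1 kb, highest 2146 kb). The medians were 28.4 kb and 29.3 kb for a seventh column of 1 and 0 and 24.6 kb for SOX2-only intervals. The members closest to the limit were in introns of ABL2, a tyrosine kinase of the ABL family (1.02 kb, total signal 3952), of SLCO1A2, an organic anion transporter (1.03 kb, 5121), and of PPIL4, a cyclophilin (1.04 kb, 6036). Just inside the limit, and so not members, were intervals at SVBP (0.944 kb, 2633), NEDD4L (0.944 kb, 5006) and NAALADL2 (0.923 kb, 6542), whose signals overlap those of the first 3.

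Introns of protein-coding genes held the centres of 592 members (54.6%, 51.6 to 57.6), and 468 (43.2%) lay outside such genes. The intron share was 52.3% in shared intervals with a seventh column of 0, with a 95% interval of the difference of -0.881 to 5.39 percentage points, and 53.5% in those with 1 (-2.26 to 4.49). Neither interval excludes equal shares. Against SOX2-only intervals the members were less often in exons, by -2.07 points (-2.82 to -0.995), and more often outside genes, by 4.71 points (1.75 to 7.71). They were also less often within 10 kb of a start, by -2.93 points (-5.45 to -0.240), and more often over 100 kb away, by 2.85 points (0.406 to 5.49). These were the 4 of 18 differences in position whose interval did not include 0, all of them against the SOX2-only class.

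The distances between members were described only, with no other class and no even scatter set beside them. They do not show whether members lay closer together or farther apart than other sites. The median gap between neighbouring centres was 1191 kb, and 29 members (2.68%) had another within 10 kb. Chromosome 1 had the most, with 126 (0.506 per Mb), and chromosome 6 the highest density (0.590 per Mb). These were 8.16% of the 1545 shared distal intervals of chromosome 1 and 8.19% of the 1233 of chromosome 6. Both shares were near the 7.98% over all chromosomes. The X chromosome had 4 of its 70 shared distal intervals (0.0258 per Mb), and chromosome 19 had 0 of 47, which allows a share of up to 6.38%. Another member within 2 kb was found for 4 members. Among them was a pair with widths of 368 and 444 bp, which lay 198 and 199 kb upstream of DCN, the gene of the matrix proteoglycan decorin. The pair carried identical signal values (total signal 7460 for both) and so may not be 2 separate measurements. In all, 41 members shared all their signal values with another shared interval. The list held 79 members more than once, so that the 1084 members filled 1180 rows.

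Their DNA was AT-rich. The median GC content of the central 200 bp was 35.5% (interquartile range 32.5 to 39.0), the same within 0.5 points as for a seventh column of 1 or 0 (both 35.0%), and above the 33.5% of SOX2-only intervals. Windows 10 kb downstream of the members had 39.0%.

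Motifs that played no part in the choice were counted in the same central windows, 9 in all, each on both strands. AP-1 (TGACTCA), the site of FOS and JUN dimers, occurred in 161 members (14.9%, 12.9 to 17.1). It occurred in 3.41% of windows 10 kb downstream and in 2.96% of genome windows, and the difference from downstream was 11.4 points (9.08 to 13.9). SOX2-only intervals had it in 6.57%, which was 8.29 points (6.28 to 10.5) fewer than in members. The members thus carried the AP-1 sequence more often than both of these, by more than counting error.

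Within the shared class the order was the other way. AP-1 was in 16.6% of intervals with a seventh column of 1 and in 17.4% with 0, and the difference of the members from the latter was -2.53 points (-4.68 to -0.157). This small difference depended on how it was measured. In windows at the region of maximum signal it was -1.90 points (-4.13 to 0.553), within bands of interval width -1.28 (-3.63 to 1.07), and over whole intervals it had the opposite sign, 5.05 points (2.22 to 8.01), with 30.9% of members and 25.9% of intervals with a 0. Members are wider, and a whole interval offers more sequence to search.

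TEAD (GGAATG), the site of the factors that act with YAP and TAZ, was in 195 members (18.0%), 7.29 points (4.35 to 10.2) above downstream and 2.44 points (0.236 to 4.86) above SOX2-only intervals, with 10.5% over the genome. It differed from intervals with a seventh column of 0 by -0.517 points (-2.84 to 2.01). The forkhead sequence (TGTTTAC or TGTTTGC), bound by FOX factors, was in 9.69% of members, 3.14 points (0.837 to 5.46) above downstream and 0.833 points (-0.899 to 2.82) from a seventh column of 0, beside 6.54% of genome windows. The E-box CAGCTG, bound by factors with a basic helix-loop-helix, was in 6.92%, which was 1.92 points (0.536 to 3.60) above SOX2-only intervals but 0.646 points (-1.46 to 2.76) from downstream. It was in 6.80% of genome windows, so the members were near the background for this sequence.

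The octamer ATGCAAAT, the site of POU factors such as OCT4, the usual partner of SOX2 in pluripotent cells, was in 25 members (2.31%, 1.57 to 3.38), beside 2.49% downstream and 2.11% of genome windows. The difference from downstream was -0.185 points (-1.52 to 1.14). RUNX (TGTGGTT) was in 6.09% beside 5.17% downstream and 3.96% over the genome. CEBP (TTGCNNCAA) was in 1.75% beside 2.31% downstream and 2.17% over the genome. The full NFI and CTCF motifs were in 2 members and 1 member. Of the 36 differences computed for these 9 motifs, 7 had an interval without 0, and only 1 of these 7, AP-1, was within the shared class.

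**Figure D5:**
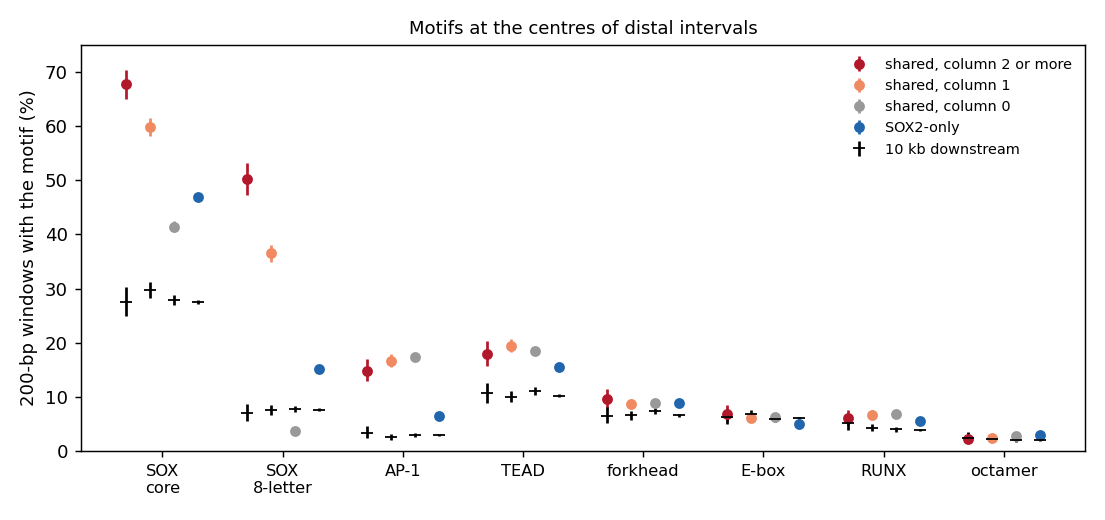
Share of 200-bp windows (%) with each of 8 motifs at the centres of the 4 classes of distal interval (coloured points) and 10 kb downstream of them (black), with 95% Wilson intervals. The SOX sequences separate the classes by construction, whereas AP-1 lies at 14.9% in the members and 6.57% in SOX2-only intervals.

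A separate SOX2 list, named as down-sampled, overlapped 693 members by at least 1 bp (63.9%, 61.0 to 66.7). The share was 64.8% with a seventh column of 0, a difference of -0.916 points (-3.98 to 2.06), 62.9% with 1 and 64.3% in SOX2-only intervals. None of these differences had an interval without 0. The same start and end as in that list were found for 441 members (40.7%), beside 38.7% with a seventh column of 1, 34.3% with 0 and 10.5% of SOX2-only intervals.

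The nearest protein-coding starts belonged to 914 genes. Of these, 779 were nearest to 1 member, 108 to 2 and 27 to 3 or more. In 555 members the centre lay in an intron of the gene with the nearest start. GRIK2, a kainate-type glutamate receptor subunit, had the most, with 6 members of 335 to 1173 bp, all in its introns. Their total signals ran from 1536 to 7314, and all had a seventh column of 2. GRIK2 was also nearest to 28 shared distal intervals and 66 SOX2-only intervals.

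HMCN1, which encodes the matrix protein hemicentin, followed with 5 members and total signals of 1621 to 5503. ACVR2A, an activin receptor, had 4 members, 2 of them over 1 Mb upstream of its start (1470 and 1605 kb) and therefore poorly assigned by distance. FST, the gene of follistatin, which binds and neutralises activin, had 4 members between 55.1 and 144 kb upstream, with total signals of 1575 to 5907. FST was the nearest gene of 10 shared distal and 9 SOX2-only intervals in all, and ACVR2A of 9 and 33.

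Genes of 6 lists were nearest to 73 members (6.73%), beside 6.93% of shared intervals with a seventh column of 0. Extracellular matrix genes had 21 members (1.94%), beside 1.99% with a seventh column of 1, 1.84% with 0 and 1.18% of SOX2-only intervals. Besides ITGA1 and DCN these included COL5A2, a fibrillar collagen chain, with a member 43.2 kb upstream of total signal 7468 and no 8-letter match. COL1A2, COL3A1, COL12A1, FN1, THBS1 and TNC, for collagens, fibronectin, thrombospondin and tenascin, had members too. The share in the members was close to that of the other shared intervals.

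Axon guidance and adhesion genes had 16 members (1.48%, beside 1.73% with a 0). The strongest was 846 kb upstream of SLIT2, a secreted guidance cue, with a total signal of 10811. Another lay 631 kb downstream of the start of SEMA5A, outside protein-coding genes (5671). Others were in an intron of CDH11, the cadherin of mesenchymal cells (5526, seventh column 3), and in an intron of the protocadherin gene PCDH9 (4686). Neural and synaptic genes had 9 (0.830%, beside 0.642% with a 0 and 0.620% of SOX2-only intervals). Of these 9, 6 were those of GRIK2, and 1 of the others lay 228 kb downstream of the start of CACNA2D3, a calcium channel subunit (6442).

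Genes of fibroblast and AP-1 factors had 13 members (1.20%, beside 0.935% with a 0). They included the CREB5 interval printed above, one 181 kb upstream of TWIST2, a mesenchymal helix-loop-helix factor (9585), one in an intron of AHR, the aryl hydrocarbon receptor (5927), and one near GLIS3 (5587). RUNX1 and AHR each had 3 members. Growth factor genes had 8 members (0.738%, beside 1.39% with a 0). These included intervals in introns of BMP5 (6294 and 5547), a ligand of the BMP family. Another lay 166 kb downstream of the start of KDR, a VEGF receptor (5236).

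Pluripotency and SOX genes had 6 members (0.554%, beside 0.394% with a 0). SOX6, a SOX family member without an activation domain, had one of total signal 5657 and seventh column 3 in an exon and one of 3720 in an intron, with pairs of matches 172 bp apart on the same strand and 92 bp apart facing away. KLF4, a factor used with SOX2 in reprogramming, was the nearest gene of an interval 559 kb upstream (3049) that held the AP-1 sequence and no 8-letter match. These counts are small, and no list was tested against other genes.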

How the data were processed

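Peak lists of CUT&RUN with a V5 antibody were analysed for replicate 1 of each group. Per the submitters' processing notes, the tools were Bowtie2 2.3.4.1, SAMtools, bedtools 2.27.1, SEACR 1.3 and deepTools 3.5.0, with build hg19, and their order and settings are not given in the sources used here. The authors deposited a total and a maximum signal per interval. Their scaling, the depth of the libraries, the pooling of replicates and the meaning of the seventh column are not given in the sources used here, so signal was compared only within the SOX2 list.

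Of 59561 rows in the SOX2 list, exact duplicates were counted once. Centres were placed against GENCODE release 44 on the GRCh37 sequence. Motifs were counted as exact words on both strands, 13 in all, in central windows of 200 bp or whole intervals, beside the same stretch 10 kb downstream, leaving out windows with undetermined bases. Shares carry 95% Wilson intervals, differences 95% Newcombe intervals and medians order-statistic intervals. There is no test across samples.

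The intervals named were those highest in seventh column, in total signal and in matches of AACAATGG or AACAATAG, those next to the 1 kb limit, the widest and the narrowest, up to 4 per gene list by total signal, and those of the genes nearest to most members. Some items that this rule selects are not reported here. Members and lists were chosen with earlier results of these data known. Code was checked on simulated data. The tools were scipy 1.17.1, pandas 2.3.3, pyfaidx 0.9.0.4, numpy 2.4.6 and matplotlib 3.10.9 under python 3.11.15.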

Additional observations from a re-analysis of the deposited data

How the results depend on the processing

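In all, 114 alternative values were computed, of which 81 were counted as unchanged. For a difference, this meant that its interval included 0, or excluded 0 on the same side, as the reported one did. Other values had to stay within the interval of the reported value. For counts of members, 7 from 907 to 1180 stayed near the reported count. Some of the 81 could not have changed. Leaving out intervals under 50 bp removed no member, as the narrowest had 123 bp, so values of the members alone stayed the same. Keeping autosomes only left 1079 of the 1084 members, so little could change there. No paired analysis was possible because only lists of replicate 1 were analysed, and leaving out a replicate was not possible for the same reason. The settings with the 8-letter sequence and with bands of width were chosen after seeing the data.

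Requiring a seventh column of 3 or more left 177 members and moved the median width to 583 bp, the median total signal to 4234, the share with the SOX core to 72.9%, with 2 or more cores to 91.5%, the core spacing to 91.0 bp, the GC content to 36.5% and the share near genes of the 6 lists to 5.08%. A value of exactly 2 gave 74.2% with 2 or more cores. The members at or above the median total signal of shared distal intervals numbered 721, with a width of 613 bp, a total signal of 4615, the core in 62.4%, 2 or more cores in 79.6%, a core spacing of 112 bp and an intron difference of 4.41 points, which then excluded 0. A limit of 5 kb moved the median distance to 39.2 kb by construction. The share with the SOX core became 16.1% for AACAATGG or AACAATAG, 50.2% for the 8-letter sequence and 95.4% over whole intervals. The share with 2 or more matches became 38.2% for AACAAT and 47.8% for the 8-letter sequence, and the spacing 126 bp and 127 bp, or 84.0 bp in the central 400 bp.

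The AP-1 difference from a seventh column of 0 included 0 with 3 or more (-4.95 points), exactly 2 (-2.05), duplicates kept (-2.19), signal at or above that median (-0.159), the region of maximum signal (-1.90), bands of width (-1.28) and against a seventh column of 1 (-1.80), and it reversed over whole intervals (5.05). Bands of GC content gave -3.33. The cause was not tested. Depth is unknown, and no value has an error between samples.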
